A study of Mus musculus with 2 samples.

Results

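The cells described here were megakaryocyte progenitors without appreciable Car1 from the bone marrow of GATA-1 2RA knock-in and wild-type mice. Members had at least 500 genes and 1000 unique molecular identifiers (UMIs, each standing for 1 captured RNA molecule), with at most 10% of UMIs from mitochondrial genes. Their summed Pf4, Itga2b, Cavin2, Treml1 and Rab27b had to reach 10 UMIs per 10000 of the cell and at least 3 UMIs. Car1 had to stay under 5 per 10000, and Mpo plus Elane under 50 per 10000. By these limits 206 of 5781 kept cells were members in the knock-in library and 158 of 5635 in the wild-type library, 364 of 11416 in all.

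The study compared bone marrow cell populations and gene expression between the genotypes by single-cell RNA sequencing of RNA 3′ ends on a droplet platform. There was 1 library of knock-in bone marrow, carrying a GATA-1 mutation that the series title calls 2RA, and 1 library of wild-type bone marrow. Both came from cells sorted as lineage-negative and Kit-positive (Lin- Kit+), a gate that keeps immature cells and removes mature blood cells. The substituted residues, strain, sex, age and number of mice per library are not stated in the labels.

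Megakaryocytes are the large bone marrow cells that shed platelets, and they arise from stem cells partly through progenitors shared with the red cell lineage. GATA-1 is a zinc-finger transcription factor that acts with its cofactor FOG-1 (Zfpm1) and with FLI1, RUNX1, TAL1 and NF-E2 in megakaryocyte maturation, and loss of GATA-1 in this lineage lowers platelet numbers in mice. As megakaryocytes mature they take up a platelet programme of adhesion receptors, granule proteins and cytoskeletal proteins. Car1 encodes a carbonic anhydrase that marks early red cell progenitors, and Mpo and Elane encode granule enzymes of neutrophil precursors.

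With 1 library per genotype no difference between knock-in and wild type has a replicate check, and no test over samples was possible. Intervals are exact 95% intervals (Clopper-Pearson for shares, Poisson for UMI sums, conditional binomial for ratios) and cover counting error only. Levels are UMIs per 1000000 UMIs summed over the cells of a group (CPM), and ratios are log2 of the knock-in over the wild-type level. A gene counted as higher or lower when it was at least 1.5-fold apart. Because reads come from RNA 3′ ends, levels were compared between groups and not ranked between genes.

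The members held 1338166 UMIs in knock-in and 1286672 in wild type, with a median per cell of 5851 in knock-in and 7631 in wild type. Over all kept cells the medians were 5449 UMIs in knock-in and 9826 in wild type. The mitochondrial limit removed 11.4% of knock-in barcodes and 23.0% of wild-type barcodes. The libraries shared 10 barcodes, none of them a member.

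The 5 genes of the rule chose the cells, so their levels are a description. Pf4, a platelet granule chemokine, stood at 4026 CPM in knock-in members and 5808 CPM in wild-type members. Itga2b, which encodes the alpha chain of the fibrinogen receptor, stood at 332 CPM in knock-in and 368 CPM in wild type. Cavin2, a caveola coat protein, stood at 417 CPM in knock-in and 301 CPM in wild type. Levels of Treml1, a granule-stored platelet receptor, were 168 CPM in knock-in and 162 CPM in wild type. Those of Rab27b, a small GTPase of platelet granule transport, were 184 CPM in both libraries. Pf4 supplied most of the marker sum in both libraries.

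The marker sum per cell ran between 10.1 and 214 per 10000 in knock-in members (median 34.9) and between 10.1 and 233 in wild-type members (median 42.0). Just inside the limit, at 10 to 12 per 10000, lay 33 knock-in and 11 wild-type cells. Just outside it, at 8 to 10 per 10000, lay 21 knock-in and 25 wild-type cells. A Car1 UMI was present in 30 knock-in members (up to 3.69 per 10000) and 52 wild-type members (up to 4.80 per 10000), so Car1 was low and not always at 0. Only 4 knock-in and 9 wild-type cells met the megakaryocyte limits with Car1 at 5 or more, too few to describe.

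Markers of the lineage that the rule did not use were also high in members. The summed level of 18 other megakaryocyte markers was 2042 CPM in knock-in members and 2004 CPM in wild-type members. In the other Car1-low, Mpo- and Elane-low cells, 2315 in knock-in and 1687 in wild type, that sum was 385 CPM in knock-in and 318 CPM in wild type. In cells with Car1 it was 104 CPM in knock-in and 82.3 CPM in wild type. Among the 18, Gp6 had no UMI in either library and Ppbp had 8 UMIs in knock-in and 9 in wild type, while Gp5 had 183 in knock-in and 188 in wild type and Gp9 122 in knock-in and 155 in wild type.

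Markers of other cell types were mostly low in the members. The sum of 11 red cell markers was 806 CPM in knock-in and 685 CPM in wild type, most of it Car2, against 7936 CPM in knock-in and 8284 CPM in wild-type cells with Car1. Car1 is among the 11, was capped by the rule in members and also defined the cells with Car1. The 8 basophil and mast cell markers summed to 14.9 CPM in knock-in and 32.6 CPM in wild type, and the 7 lymphoid markers to 3.74 CPM in knock-in and 11.7 CPM in wild type. The neutrophil sum of 6 genes was 338 CPM in knock-in and 744 CPM in wild type. It includes Mpo and Elane, which the rule capped, so it is partly set by the rule. Mpo stood at 75.5 CPM in knock-in and 227 CPM in wild type, and Elane at 44.8 CPM in knock-in and 152 CPM in wild type. The 7 stem cell markers summed to 94.2 CPM in knock-in and 73.1 CPM in wild-type members, against 173 CPM in knock-in and 201 CPM in wild-type other Car1-low cells. Of these, Hlf, Mecom, Mllt3 and Ctnnal1 had 18 to 37 UMIs in each library, Ly6a had none, and Procr and Fgd5 had at most 2.

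**Figure D1:**
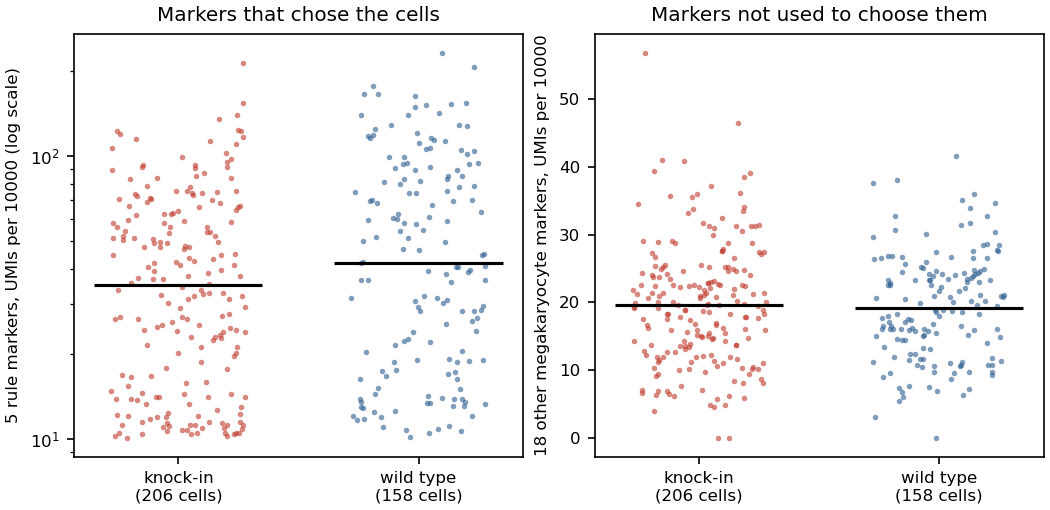
Each point is a member cell, knock-in left of wild type, with the sum of the 5 rule markers on a log axis (left panel) and of 18 other megakaryocyte markers on a linear axis (right panel), both in UMIs per 10000; black lines are medians. The rule sums begin at 10 because of the limit, with medians of 34.9 in knock-in and 42.0 in wild type, and the other markers have medians of 19.6 in knock-in and 19.1 in wild type.

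Set against the other Car1-low, Mpo- and Elane-low cells of the same library, 194 of 9579 genes measured were at least 2-fold higher in members in both libraries (2.03%), and 576 were at least 2-fold lower in both (6.01%). The rule selected cells on expression in this contrast, so these counts describe the members and were not tested. Of the 17 platelet surface receptors measured, a list that includes Itga2b and Treml1 of the rule, 14 were at least 2-fold higher in both libraries.

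Vwf, which encodes von Willebrand factor, the adhesive protein that tethers platelets, was the gene furthest higher outside the rule. Its level was 87.4 CPM in members and 3.07 CPM in the other cells of the knock-in library. In the wild-type library it was 127 CPM in members and 1.78 CPM in the other cells. Serpine2, a protease inhibitor stored in platelets, had 133 CPM in members and 5.05 CPM in other cells in knock-in, and 138 CPM in members and 3.16 CPM in other cells in wild type. F2rl2, the thrombin receptor PAR3 of mouse platelets, had 94.2 CPM in members and 4.42 CPM in other cells in knock-in, and 73.8 CPM in members and 2.75 CPM in other cells in wild type. Ehd3, Timp3, Pde10a, Ache, Itgb3, F10, Rbpms2, Kalrn and Clu made up the rest of the 12 genes furthest higher in both libraries. Itgb3 encodes the beta chain that pairs with Itga2b, and F10 encodes coagulation factor X.

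The genes furthest lower in members belonged to other marrow lineages. Cd74, a chaperone of antigen presentation, had no UMI in 206 knock-in members and 2 UMIs in 158 wild-type members, against 85.8 CPM in knock-in and 104 CPM in wild-type other cells. Dntt, the lymphoid terminal transferase, had 0 UMIs in knock-in and 7 in wild-type members. Flt3, a cytokine receptor of early lymphoid and myeloid progenitors, stood at 0.747 CPM in members and 51.3 CPM in other cells in knock-in, and at 4.66 CPM in members and 73.9 CPM in other cells in wild type. Ermap of red cells, Hdc, Il1rl1 and Siglecf of mast cells, basophils and eosinophils, and Csf3r of neutrophils were also among the 12 furthest lower.

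Promoter windows of megakaryocyte genes are shown because GATA and ETS factors are known regulators of this lineage. Each window runs from 250 bases before to 50 bases after a RefSeq transcription start (GRCm38.p6, the assembly called mm10), 5′ to 3′ on the gene's strand. Capitals mark GATAA or its reverse complement TTATC, and GGAAG or its reverse complement CTTCC, a core common to ETS sites. Pf4 (chr5:90772185-90772484, plus strand) and Itga2b (chr11:102469834-102470133, minus strand) are rule genes. Gp9 (chr6:87777820-87778119, plus strand) and Gp5 (chr16:30310732-30311031, minus strand) encode subunits of the von Willebrand factor receptor, and F2rl2 (chr13:95696670-95696969, plus strand) is the thrombin receptor above. Slamf1 (chr1:171766882-171767181, plus strand) is the listed receptor gene furthest apart between the genotypes.
Pf4: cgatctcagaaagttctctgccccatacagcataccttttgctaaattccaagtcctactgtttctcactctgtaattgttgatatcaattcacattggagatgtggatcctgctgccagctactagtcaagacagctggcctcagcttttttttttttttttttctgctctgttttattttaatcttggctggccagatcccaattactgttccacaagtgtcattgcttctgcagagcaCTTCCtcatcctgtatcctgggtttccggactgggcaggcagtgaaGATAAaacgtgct
Itga2b: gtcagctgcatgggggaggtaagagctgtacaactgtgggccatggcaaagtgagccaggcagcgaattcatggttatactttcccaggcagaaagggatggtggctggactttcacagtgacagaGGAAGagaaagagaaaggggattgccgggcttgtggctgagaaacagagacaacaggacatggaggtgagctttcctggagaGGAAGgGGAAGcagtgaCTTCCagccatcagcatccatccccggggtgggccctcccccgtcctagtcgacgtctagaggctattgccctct
Gp9: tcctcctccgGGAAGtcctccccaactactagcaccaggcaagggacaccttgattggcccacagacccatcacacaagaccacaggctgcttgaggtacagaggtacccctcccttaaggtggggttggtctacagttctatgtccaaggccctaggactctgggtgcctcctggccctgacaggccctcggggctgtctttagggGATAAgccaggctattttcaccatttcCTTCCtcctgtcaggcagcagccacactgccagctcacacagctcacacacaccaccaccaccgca
Gp5: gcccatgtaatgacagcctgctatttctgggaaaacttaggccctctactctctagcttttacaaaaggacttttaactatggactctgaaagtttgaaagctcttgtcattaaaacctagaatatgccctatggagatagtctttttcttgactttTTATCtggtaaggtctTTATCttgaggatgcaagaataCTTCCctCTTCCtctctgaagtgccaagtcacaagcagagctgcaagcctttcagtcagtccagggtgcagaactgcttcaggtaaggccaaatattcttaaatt
F2rl2: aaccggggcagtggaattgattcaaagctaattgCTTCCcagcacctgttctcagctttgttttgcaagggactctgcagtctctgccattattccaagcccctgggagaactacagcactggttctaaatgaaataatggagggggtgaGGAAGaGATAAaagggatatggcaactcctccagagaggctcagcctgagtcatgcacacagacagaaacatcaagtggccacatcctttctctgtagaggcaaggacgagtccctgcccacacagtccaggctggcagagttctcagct
Slamf1: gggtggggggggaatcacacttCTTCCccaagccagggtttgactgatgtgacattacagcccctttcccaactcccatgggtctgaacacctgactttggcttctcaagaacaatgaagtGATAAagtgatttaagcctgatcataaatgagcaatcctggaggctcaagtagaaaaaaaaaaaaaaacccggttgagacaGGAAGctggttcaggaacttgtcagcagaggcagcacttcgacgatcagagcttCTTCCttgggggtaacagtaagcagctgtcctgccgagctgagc

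Gp5 held 2 GATAA matches, at 93 and 77 bases before the start, beside 2 GGAAG matches. F2rl2 held a GGAAG match at 100 bases before the start and a GATAA match at 94. Itga2b held 4 GGAAG matches and no GATAA in this window. Over all 32851 RefSeq windows of the same length, 25.4% held GATAA on either strand, 71.4% held GGAAG and 17.2% held both. Of the 194 genes at least 2-fold higher in members, 152 matched 199 windows, and 21.6% of those held GATAA, 79.9% GGAAG and 16.1% both. Windows of all genes measured in that comparison held GATAA in 16.0%, GGAAG in 77.1% and both in 12.2%. A match is only a description of letters, and the letters say nothing of whether a factor binds.

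The members were 3.56% of kept cells in knock-in (3.1% to 4.07%) and 2.80% in wild type (2.39% to 3.27%). The log2 ratio of the shares was 0.35 (0.04 to 0.65). A share depends on what else is in the sort: cells with Car1 were 47.0% of knock-in and 38.9% of wild-type cells, and Mpo- and Elane-high cells were 9.31% of knock-in and 28.2% of wild-type cells. Among cells outside the Car1-containing group, members were 206 of 3059 in knock-in (6.73%, 5.87% to 7.68%) and 158 of 3436 in wild type (4.60%, 3.92% to 5.35%). The interval of the ratio reached below 0 when the marker sum had to be 20 or more (0.30, -0.06 to 0.67), and the ratio was 0.69 (0.34 to 1.06) when no Car1 UMI was allowed.

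The members formed a continuum of marker level. At a marker sum of 10 to 20 per 10000 there were 62 knock-in and 44 wild-type cells. At 20 to 50 there were 71 knock-in and 41 wild-type cells, and at 50 or more there were 73 in each library. The top stratum thus held 35.4% of knock-in members (28.9% to 42.4%) and 46.2% of wild-type members (38.2% to 54.3%). The sum belongs to the rule, so these shares are a description. The strata are ranges of a sum and not cell types. Across cells the marker sum had a Spearman correlation with the 18 other megakaryocyte markers of 0.50 over the 206 knock-in and 0.50 over the 158 wild-type members. It also correlated with total UMIs, at 0.48 in knock-in and 0.45 in wild type, so depth moves with the strata.

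Platelet receptor genes were mostly higher in the top than in the bottom stratum of both libraries. Between these strata 188 of 5006 genes with at least 20 UMIs in each library were 1.5-fold or more higher in both libraries (3.76%), and 133 were lower in both (2.66%). Of 15 platelet surface receptors measured outside the rule genes, 10 were higher in both and 0 were lower. Vwf stood at 17.3, 64.0 and 141 CPM over the 3 strata of knock-in, low to high, and at 33.0, 58.1 and 193 CPM over those of wild type. Serpine2 stood at 20.7, 79.0 and 233 CPM in knock-in and at 25.7, 74.2 and 209 CPM in wild type. Both genes climbed through all 3 strata of both libraries.

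Other genes were lower in the top stratum. Of 13 stem cell genes measured, 5 were lower in both libraries and 0 were higher, with median log2 ratios of top over bottom of -0.05 in knock-in and -0.60 in wild type. Vim, an intermediate filament gene, stood at 369, 139 and 43.1 CPM over the knock-in strata and at 279, 100.02 and 45.5 CPM over the wild-type strata. Kit, the stem cell factor receptor on which the cells were sorted, stood at 114, 68.3 and 51.7 CPM in knock-in and at 205, 90.3 and 79.5 CPM in wild type. Of 16 immediate early genes measured, 11 were lower in the top stratum in both libraries and 0 were higher. The transcription factor genes Sox4 and Bcl11a were lower in both as well, whereas Gata1 stood at 72.5, 55.5 and 53.5 CPM in knock-in and at 69.7, 38.7 and 56.8 CPM in wild type. Whether the depth of the cells had a part in these gradients was not tested.

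Summed over lists without the rule genes, the 18 megakaryocyte markers stood at 1419, 1889 and 2478 CPM over the knock-in ranges, low to high, and at 1470, 1584 and 2396 CPM over the wild-type ranges. Immediate early genes summed to 3884, 3056 and 2131 CPM over the knock-in ranges, low to high, and to 5713, 3210 and 2652 CPM over the wild-type ranges, lower in knock-in in all 3 ranges. Genes of the G2 and M phases summed to 4523, 5937 and 7271 CPM over the knock-in ranges, low to high, and to 8397, 6379 and 6663 CPM over the wild-type ranges, so the libraries lay apart mainly in the lowest range.

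**Figure D2:**
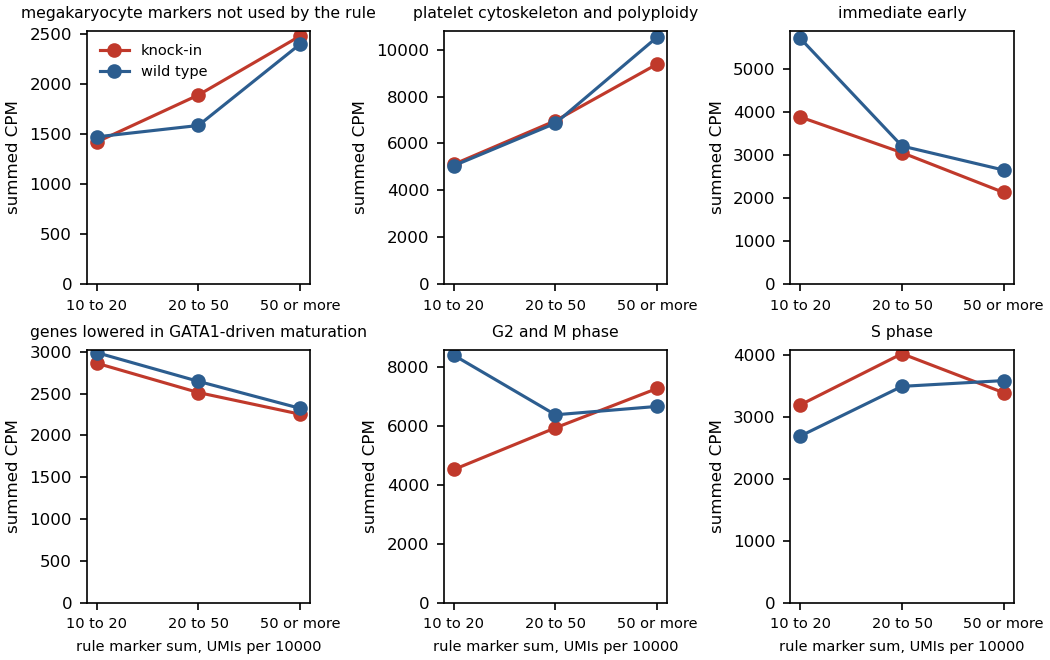
Summed CPM of 6 gene lists, on linear axes from 0, over the 3 ranges of the rule marker sum in UMIs per 10000, for knock-in (red) and wild-type (blue) members. Megakaryocyte and cytoskeleton sums climb and immediate early sums drop over the ranges of both libraries, and the G2 and M phase sums differ most at 10 to 20.

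Knock-in and wild-type members were close for most genes. Of 5867 genes with at least 50 UMIs over both libraries, 257 were higher in knock-in (4.38%) and 274 were lower (4.67%). With an interval off no difference as well, 172 were higher (2.93%) and 196 were lower (3.34%). Without the fold limit, intervals lay above 0 for 8.45% and below 0 for 6.6% of genes. The median log2 ratio over all genes was 0.03, and 53.9% of genes had a ratio above 0. The 6 lists of megakaryocyte and platelet genes together had 136 listed genes, of which 103 passed the minimum of 50 UMIs. Among these, 6 were higher in knock-in and 3 lower, the median log2 ratio was 0.03, and the interval held 0 for 70. The shares past the fold, 5.83% higher and 2.91% lower, lay near those of all genes. Intervals off 0 were more frequent in these lists than over all genes, where they lay above 0 for 8.45% and below 0 for 6.6%. The 5 rule genes, which chose the cells, are among the 103. Without them 98 genes were measured, with 6.12% higher and 3.06% lower, and the interval held 0 for 67.

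**Figure D3:**
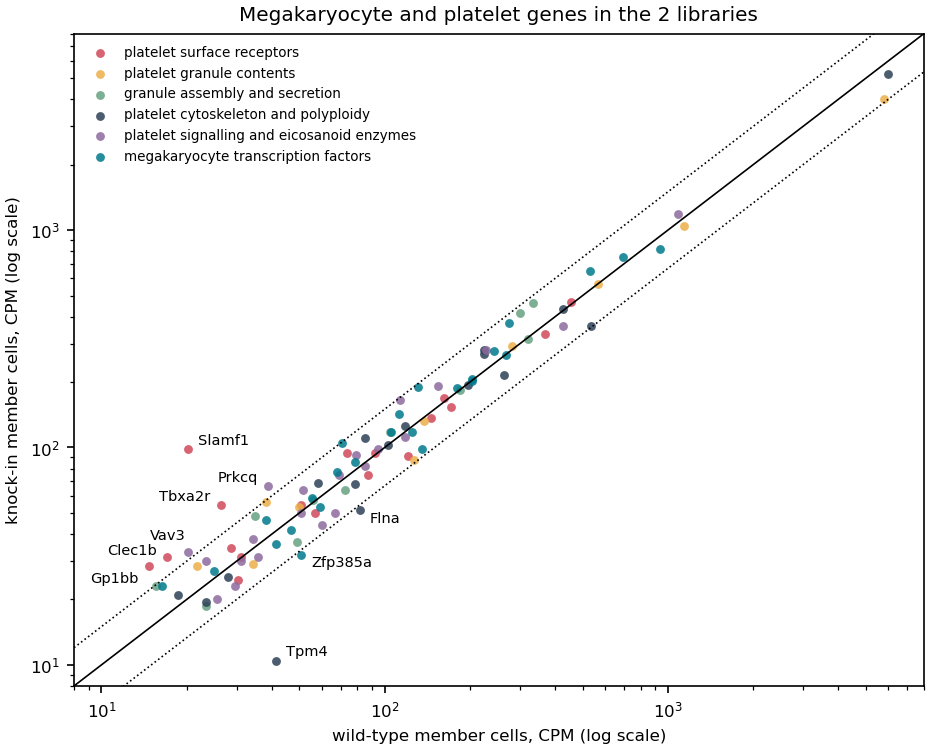
CPM of the 103 measured megakaryocyte and platelet genes in knock-in members (vertical) against wild-type members (horizontal), both on log axes, coloured by list. The solid line marks equal levels and the dotted lines 1.5-fold; the 9 named genes lie outside them.

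Receptors of the platelet surface were mostly at like levels, with 4 of 18 measured higher in knock-in and 0 lower and a median log2 ratio of 0.03. Itga2b and Treml1, which the rule used to choose the cells, are among the 18. Gp5 stood at 137 CPM in knock-in and 146 CPM in wild type, and Gp9 at 91.2 CPM in knock-in and 120 CPM in wild type. The Gp9 ratio of -0.40 (-0.76 to -0.05) became 0.01 when every cell was thinned to 3000 UMIs and the rule applied again. Itgb3 stood at 50.1 CPM in knock-in and 56.7 CPM in wild type, and Cd9, a tetraspanin of platelets, at 465 CPM in knock-in and 456 CPM in wild type.

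Slamf1 (CD150; gene at chr1:171767127-171801184, plus strand, mm10), a surface receptor carried by stem cells and by early megakaryocyte and red cell progenitors, was the receptor furthest apart. It had 131 UMIs in knock-in and 26 in wild type, 97.9 CPM in knock-in and 20.2 CPM in wild type, for a log2 ratio of 2.28 (1.66 to 2.94). At least 1 UMI was seen in 87 of 206 knock-in members (42.2%) and 23 of 158 wild-type members (14.6%), and no knock-in cell held more than 5. With cells thinned to 3000 UMIs, which left out 17 knock-in and 10 wild-type members, the shares were 25.4% in knock-in (19.4% to 32.2%) and 6.76% in wild type (3.29% to 12.1%). In Mpo- and Elane-high cells, taken as the background from free RNA, the thinned shares were 0.379% in knock-in and 0.259% in wild type, at unthinned median depths of 9827 UMIs in knock-in and 11095 in wild type. When every cell was thinned to 3000 UMIs and the rule applied again, the log2 ratio was 1.65, just below the interval of 1.66 to 2.94.

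Slamf1 was also higher in knock-in among other cells of the sort and in each stratum. Among other Car1-low cells its log2 ratio was 2.24, among cells with Car1 it was 1.98, and among Mpo- and Elane-high cells, which hold little of it, it was 0.78. Over the strata, low to high, Slamf1 stood at 86.3, 96.0 and 105 CPM in knock-in and at 33.0, 6.45 and 21.3 CPM in wild type. Cd48, another gene of the SLAM family, was also higher in knock-in members, with 83.7 CPM in knock-in and 40.4 CPM in wild type (log2 ratio 1.05, 0.56 to 1.55).

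**Figure D4:**
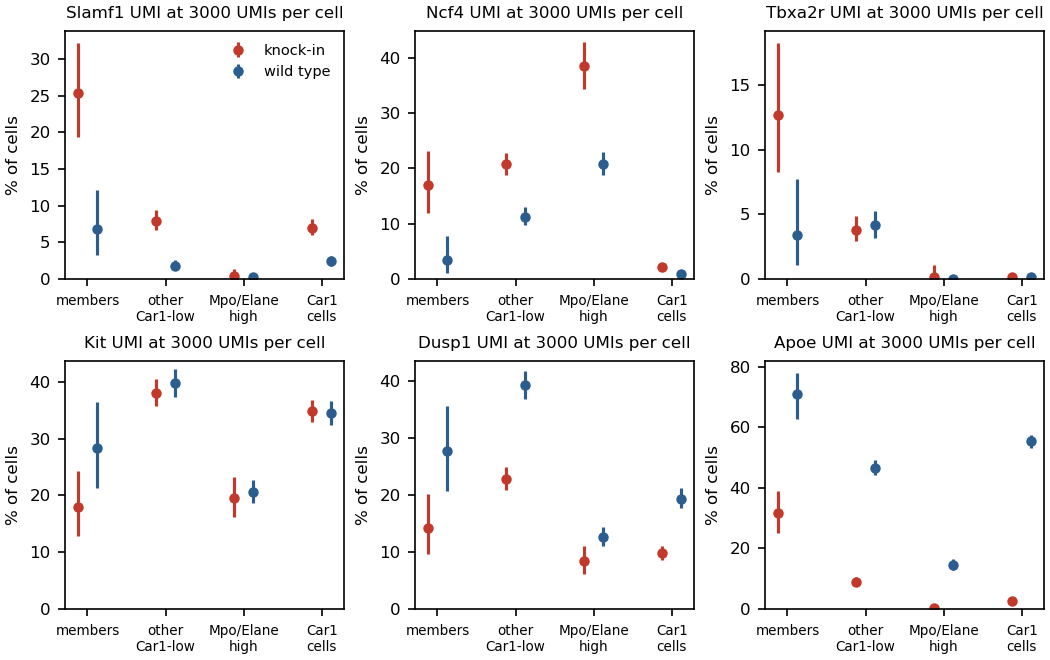
Share of cells, in percent, with at least 1 UMI of 6 genes after thinning every cell to 3000 UMIs, in members and 3 other groups of cells, knock-in (red) left of wild type (blue); bars are exact 95% counting intervals. Slamf1 shares are 25.4% in knock-in and 6.76% in wild-type members, and Tbxa2r shares 12.7% in knock-in and 3.38% in wild-type members. Intervals of members do not overlap for Slamf1, Ncf4 and Tbxa2r, higher in knock-in, or for Dusp1 and Apoe, lower in knock-in. Those for Kit overlap.

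Another 3 receptors were higher in knock-in at lower counts. Tbxa2r, the thromboxane A2 receptor that amplifies platelet activation, had 54.6 CPM in knock-in and 26.4 CPM in wild type, a log2 ratio of 1.05 (0.44 to 1.68), against 0.08 in other Car1-low cells. A Tbxa2r UMI was seen in 28.2% of knock-in and 15.8% of wild-type members before thinning, and in 12.7% of knock-in and 3.38% of wild-type members after it. Gp1bb, a subunit of the von Willebrand factor receptor, had 28.4 CPM in knock-in and 14.8 CPM in wild type (0.94, 0.11 to 1.82), with 7 of its 38 knock-in UMIs in 1 cell. After thinning, a Gp1bb UMI was seen in 4.76% of knock-in and 6.76% of wild-type members, the opposite order, and before it in 15.05% of knock-in and 11.4% of wild-type members. Clec1b, the podoplanin receptor CLEC-2, had 31.4 CPM in knock-in and 17.1 CPM in wild type (0.88, 0.10 to 1.69), and was seen in 8.47% of knock-in and 4.05% of wild-type members after thinning, and in 14.6% of knock-in and 9.49% of wild-type members before it. Gp1bb, Gp9 and Gp5 belong to the same receptor complex, and their ratios did not share a direction.

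Granule cargo and the machinery that packs it stayed within 1.5-fold. None of 10 granule content genes measured passed that fold, with a median log2 ratio of -0.03, and none of 11 genes of granule assembly and secretion did, with a median of 0.04. Pf4 is among the 10, and Rab27b and Cavin2 are among the 11, so the rule that chose the cells bears on both lists. Vwf stood at 87.4 CPM in knock-in and 127 CPM in wild type, a log2 ratio of -0.53 (-0.89 to -0.18). Tgfb1, a growth factor held in granules, stood at 565 CPM in knock-in and 566 CPM in wild type. Mmrn1, the factor V carrier multimerin, stood at 56.0 CPM in knock-in and 38.1 CPM in wild type (0.56, 0.02 to 1.11). Vamp8, a SNARE protein of granule release, stood at 461 CPM in knock-in and 334 CPM in wild type (0.46, 0.28 to 0.65).

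Of 17 genes of the platelet cytoskeleton and of polyploidy, 2 were lower in knock-in and 0 were higher, and the median log2 ratio was -0.03. Tpm4, the tropomyosin of platelet formation, had 14 UMIs in knock-in and 53 in wild type, 10.5 CPM in knock-in and 41.2 CPM in wild type, for a log2 ratio of -1.98 (-2.94 to -1.11). The Tpm4 ratio was -1.47 in other Car1-low cells, -0.72 (-1.13 to -0.33) in Mpo- and Elane-high cells and -2.22 in cells with Car1. The last value rests on 7 UMIs in knock-in and 40 in wild type. The lower level was thus not seen in members alone, though it was smaller in Mpo- and Elane-high cells. Flna, filamin A, which ties the von Willebrand factor receptor to actin, had 51.6 CPM in knock-in and 81.6 CPM in wild type (-0.66, -1.12 to -0.21). Fermt3, the integrin activator kindlin-3, had 362 CPM in knock-in and 533 CPM in wild type (-0.56, -0.73 to -0.39), short of 1.5-fold. Tln1, Myh9 and Tpm1 differed by at most 0.09 on the log2 scale.

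Among 22 signalling genes and eicosanoid enzymes 2 were higher and 0 were lower, with a median log2 ratio of 0.08. Prkcq, protein kinase C theta, had 66.5 CPM in knock-in and 38.9 CPM in wild type (0.78, 0.26 to 1.31). Vav3, a guanine nucleotide exchange factor, had 32.9 CPM in knock-in and 20.2 CPM in wild type, and its interval held 0 (0.70, -0.03 to 1.46). Rap1b, the GTPase that turns on integrins, stood at 1180 CPM in knock-in and 1085 CPM in wild type (0.12, 0.02 to 0.23). Jak2, a tyrosine kinase of cytokine receptors, stood at 20.2 CPM in knock-in and 25.6 CPM in wild type, and its interval held 0.

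Gata1 itself, the mutated gene, had 78 UMIs in knock-in and 71 in wild-type members, 58.3 CPM in knock-in and 55.2 CPM in wild type (0.08, -0.40 to 0.56). The ratio was 0.63 among cells thinned to 3000 UMIs with the rule applied again. The share of members with a Gata1 UMI had the opposite order. It was 14.3% in knock-in and 16.2% in wild type after thinning, and 27.2% in knock-in and 32.9% in wild type before it. Counts of 3′ ends do not show a substitution in the coding sequence, so this level does not check the genotype. Gata2, the related factor of earlier progenitors that GATA-1 normally replaces, stood at 202 CPM in knock-in and 204 CPM in wild type (-0.01, -0.26 to 0.24). Elsewhere in the sort its ratio was 0.52 in other Car1-low cells and 1.11 in cells with Car1.

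Of 25 megakaryocyte transcription factors measured, 0 were higher, 1 was lower and the median log2 ratio was 0.11. Fli1 stood at 268 CPM in both libraries and Runx1 at 187 CPM in knock-in and 180 CPM in wild type. Zfpm1 stood at 374 CPM in knock-in and 275 CPM in wild type (0.44, 0.24 to 0.64), and Gfi1b, a repressor needed for platelet production, at 105 CPM in knock-in and 70.7 CPM in wild type (0.58, 0.19 to 0.97). The level of Myb, a proto-oncogene active in immature blood cells, was 190 CPM in knock-in and 131 CPM in wild type (0.54, 0.25 to 0.83). These 3 genes were higher with intervals above 0 but short of 1.5-fold. Zfp385a was the gene past it, with 32.1 CPM in knock-in and 50.5 CPM in wild type (-0.65, -1.24 to -0.08).

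Of 14 genes listed as lowered when GATA-1 drives maturation, 0 were higher and 2 were lower, with a median log2 ratio of -0.04. Kit had 71.0 CPM in knock-in and 109 CPM in wild type (-0.62, -1.01 to -0.23), against a ratio of -0.08 in other Car1-low cells. Spi1, the myeloid factor PU.1, had 24.7 CPM in knock-in and 39.6 CPM in wild type (-0.68, -1.36 to -0.03). Kit was the sorting antigen, and the sort gates of the libraries are not given in the sources used here.

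Red cell genes were at like levels apart from globins. Of 9 measured, 2 were higher and 0 were lower, and the median log2 ratio was 0.41. Hbb-bs, adult beta globin, had 791 UMIs in knock-in and 7 in wild-type members, but 1 knock-in cell held 749 of them. The same held for Hba-a1, adult alpha globin, with 337 UMIs in knock-in, 320 of them in 1 cell, and 2 in wild type. Outside the top 5 cells Hbb-bs had 24 UMIs in knock-in and 1 in wild type. Globin ratios were also high in Mpo- and Elane-high cells, whose lineage does not make globin, at 7.20 for Hbb-bs. The adult alpha and beta genes each have a near-identical copy, so the split of reads between copies is uncertain. Car2, a carbonic anhydrase of both lineages, had 538 CPM in knock-in and 446 CPM in wild type (0.27, 0.11 to 0.43).

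Of 11 granulocyte and monocyte genes measured 0 were higher and 6 were lower in knock-in members, with a median log2 ratio of -0.73. Mpo and Elane, which the rule capped, are 2 of the 6. Prtn3, proteinase 3, had 127 CPM in knock-in and 239 CPM in wild type (-0.91, -1.19 to -0.64). Plac8 had 113 CPM in knock-in and 247 CPM in wild type (-1.13, -1.42 to -0.85). Ms4a3 and Lyz2 stayed within 1.5-fold, with 47.1 CPM in knock-in and 52.8 CPM in wild type for Ms4a3, and 132 CPM in knock-in and 121 CPM in wild type for Lyz2. Mpo- and Elane-high cells were 9.31% of knock-in and 28.2% of wild-type cells. The part of free RNA from those cells in the droplets of members was not tested.

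Stem cell genes included 3 of 17 higher in knock-in and 0 lower, with a median log2 ratio of 0.19. Cd48 was among the 3 higher, although it was not limited to stem cells in this sort. After thinning, a Cd48 UMI was seen in 21.2% of knock-in members (15.6% to 27.7%) and 14.9% of wild-type members (9.56% to 21.6%), with overlapping intervals. In other Car1-low cells the thinned shares were 37.8% in knock-in and 26.2% in wild type, also higher in knock-in. In Mpo- and Elane-high cells the thinned shares were 27.3% in knock-in and 29.7% in wild type. Ctnnal1 had 27.7 CPM in knock-in and 14.0 CPM in wild type (0.98, 0.13 to 1.88). Mllt3, which maintains stem cells, was the third, and its interval held 0. Meis1, a homeobox factor of stem and megakaryocyte cells, stood at 277 CPM in knock-in and 244 CPM in wild type, and Angpt1 at 294 CPM in knock-in and 282 CPM in wild type.

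Of 17 immediate early genes measured, which respond within minutes to stimuli including cell handling, 4 were lower in knock-in members, 0 were higher and 13 stayed within 1.5-fold. Their median log2 ratio was -0.33, and 3 had ratios above 0. Fos had 167 CPM in knock-in and 341 CPM in wild type (-1.03, -1.27 to -0.80). Dusp1, a phosphatase that ends kinase signalling, had 53.1 CPM in knock-in and 131 CPM in wild type (-1.30, -1.72 to -0.89). Zfp36 and Klf6 were the other two, with log2 ratios of -1.0 and -0.90. Within the top stratum Fos stood at 81.0 CPM in knock-in and 199 CPM in wild type, and Dusp1 at 25.9 CPM in knock-in and 99.4 CPM in wild type.

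Cell cycle genes differed little. Of 33 S-phase genes 0 were higher and 1, E2f8, was lower, with a median log2 ratio of 0.06. Of 43 genes of the G2 and M phases 1 was higher and 2 were lower, with a median of -0.14. Mki67, the proliferation antigen, stood at 331 CPM in knock-in and 361 CPM in wild type (-0.12, -0.31 to 0.07). In the bottom stratum it was 231 CPM in knock-in and 418 CPM in wild type, and in the top stratum 372 CPM in knock-in and 351 CPM in wild type. At 3000 UMIs per cell an Mki67 UMI was seen in 38.1% of knock-in members (31.1% to 45.4%) and 41.9% of wild-type members (33.8% to 50.3%), and before thinning in 43.7% of knock-in and 50% of wild-type members.

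No gene of 7 p53 targets and cell-cycle inhibitors and none of 15 genes of the integrated stress and unfolded protein responses passed 1.5-fold, with medians of 0.20 and 0.03. Of 9 interferon response genes, Bst2 alone was lower, with 30.6 CPM in knock-in and 74.6 CPM in wild type (-1.28, -1.85 to -0.74), and none was higher. Its ratio was -1.58 in other Car1-low cells and -1.31 in cells with Car1. Of 8 cytokine receptors measured 0 were higher and 1, Kit, was lower, with a median of -0.10. Of 2 lymphoid genes measured, Cd79b was higher, with 38.9 CPM in knock-in and 23.3 CPM in wild type (0.74, 0.06 to 1.44). The mast and basophil list had 1 gene past the minimum, Lmo4, within 1.5-fold, and the eosinophil, macrophage and endothelial lists had none.

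Genes furthest higher in knock-in members, ranked by how far the interval lay from no difference and leaving out the rule genes, were led by the 4 globins and Slamf1. Ncf4, a subunit of the phagocyte oxidase, had 54.6 CPM in knock-in and 10.1 CPM in wild type (2.43, 1.57 to 3.41), against 1.06 in other Car1-low cells. Inpp4b, a phosphoinositide phosphatase, had 55.3 CPM in knock-in and 14.0 CPM in wild type (1.98, 1.22 to 2.81), and its ratio was 4.23 in cells with Car1. Cd93, a surface receptor of early progenitors, had 80.0 CPM in knock-in and 35.7 CPM in wild type (1.16, 0.65 to 1.69), while its ratio was 0.01 in other Car1-low cells and -0.17 in cells with Car1. Gchfr, a regulator of tetrahydrobiopterin synthesis, had 40.4 CPM in knock-in and 15.5 CPM in wild-type members (1.38, 0.61 to 2.19). These between-cell differences were not tested.

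Genes furthest lower were mostly lower to a like extent in every cell group of the knock-in library. Ndufa3, a subunit of respiratory complex I, had a log2 ratio of -1.62 in members, -1.55 in other Car1-low cells, -1.77 in Mpo- and Elane-high cells and -1.49 in cells with Car1. Hist1h2ap had a ratio of -3.98 in members and -3.97 in cells with Car1, and histone genes share near-identical copies. Wdr83os, Polr2k and Atp5k, which encode small proteins of membrane insertion, transcription and respiration in that order, behaved alike. Apoe, a lipid carrier, was lower by less in members than elsewhere: it had 140 CPM in knock-in and 565 CPM in wild-type members (-2.01, -2.25 to -1.77), against a ratio of -3.52 in other Car1-low cells and -5.24 in cells with Car1.

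**Figure D5:**
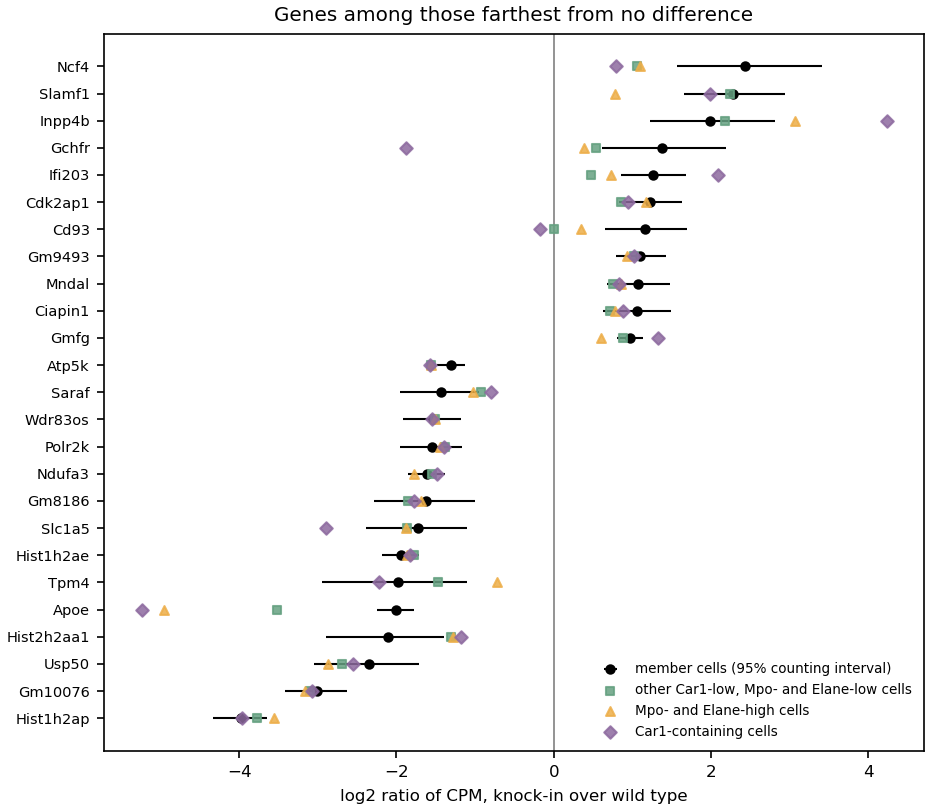
Log2 ratio of knock-in over wild type for genes among those furthest apart, globins left out, in members and in the 3 comparison groups of cells; bars are 95% counting intervals of the members. Ndufa3 and Wdr83os lie near the same value in all groups, and Cd93 lies at 1.16 in members with the other groups at or below 0.35.

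Of the 172 genes higher in knock-in members with an interval off no difference, 38 were past 1.5-fold in the same direction in other Car1-low cells, 33 in Mpo- and Elane-high cells and 48 in cells with Car1. Over all 5867 genes measured in members the shares past that fold were 1.64%, 2.3% and 3.6% in those groups, against 22.1%, 19.2% and 27.9% of the 172. All 3 groups showed the fold for 20 of the 172. Of the 196 lower genes, 84 in other Car1-low cells, 80 in Mpo- and Elane-high cells and 82 in cells with Car1 were past it, 42.9%, 40.8% and 41.8%. The shares over all genes were 2.28%, 2.27% and 2.54%. All 3 groups showed the fold for 67 of the 196.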

How the data were processed

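Single-cell 3′ RNA libraries of Lin- Kit+ marrow, 1 per genotype, were analysed from matrices of whole-number UMI counts per gene and barcode, deposited by the authors. Per the file headers the matrices were written by Cell Ranger 3.1.0, and per the submitters' processing notes the build was mm10; other settings are not given in the sources used here. No deposited barcode held under 500 UMIs. Knock-in held 48005467 UMIs over 6640 barcodes and wild type 70543211 over 7471.

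Counts were summed over member cells per library and divided by the total (Python 3.11.15, numpy 2.4.6, scipy 1.17.1). Interval and ratio code was tested on simulated data. The members and the 22 gene lists were chosen with earlier results of these data known. Genes named were measured members of the 6 megakaryocyte lists, the 4 members with most UMIs and those past the fold with an interval off no difference in other lists, the 15 furthest apart in each direction without mitochondrial, ribosomal protein, Xist, Tsix, Y-linked and rule genes, and the 12 furthest in each direction against other cells. A few others (such as Gp6, Gp1ba, Ppbp, Procr, Ly6a, Vim, Sox4, Mllt3 and Flt3) were named after their values were seen. Some genes are not reported here. Comparison with Car1-containing megakaryocyte cells was planned, but those cells were too few, so other Car1-low, Mpo- and Elane-low cells took their place, chosen after the cells were counted.

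Doublets were left in. The top 5% of Scrublet scores (scanpy 1.11.5), left out in an alternative, held 4 of 206 knock-in and 0 of 158 wild-type members. Further alternatives changed the cell filters, depth, marker limits, gene minimum and scaling.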

Additional observations from a re-analysis of the deposited data

How the results depend on the processing

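No paired analysis was possible because each genotype had 1 library, and for the same reason no replicate could be left out. The log2 ratio of member shares, 0.35 as reported, lay between 0.30 and 0.69 over 8 alternatives; it was 0.69 when no Car1 UMI was allowed, with 176 members in knock-in and 106 in wild type. At a marker sum of 20 or more its interval held 0 (0.30, -0.06 to 0.67). Counts of genes past 1.5-fold, 257 higher and 274 lower, depend on the UMI minimum: they were 642 higher and 653 lower at 20 UMIs, and 2099 higher and 2249 lower with no minimum. Thinning cells to 3000 UMIs left 3345 genes measured, 197 higher and 179 lower. Thinning also moved 40 gene values beyond their counting interval, most of the 59 moved over all alternatives. Another 3883 values were not moved, but these include values under changed UMI minimums, which cannot alter a gene's ratio. The 3883 therefore say little of how far gene ratios depend on depth. No median of a list left the range between the medians of its genes' lower and upper limits. That range is as wide as for a typical single gene, so it could hardly show a shift of a list. No called value changed sign. Weighting the strata alike and leaving out the knock-in cell with most globin UMIs were chosen after seeing the data. Depth limits genes of few UMIs: of 257 higher genes 172 had an interval off no difference, and of 274 lower genes 196 did.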
